A study of Saccharomyces cerevisiae with 7 samples.

Results

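THR4, GDH1, ARO2 and ARO8 are 4 genes of amino acid synthesis in budding yeast (Saccharomyces cerevisiae), and their readthrough at the 3' end was described here in 7 run-on sequencing libraries. The members were named individually and found by symbol or systematic name, which placed all 4 among the 337 genes of the main table. They were named with their readthrough values already known, so every comparison of sua7-1 with WT for these genes is a description and carries no test. The 3 sua7-1 libraries, replicates 2, 3 and 4, came from cells whose TFIIB, the general transcription factor encoded by SUA7, has a lysine in place of a glutamic acid. The 4 WT libraries, replicates 1 to 4, came from the isogenic wild type. Both strains derive from BY4733, a MATα strain with the alleles his3Δ200, trp1Δ63, leu2Δ0, met15Δ0 and ura3Δ0. BY4733 thus lacks a working enzyme of tryptophan, histidine, leucine and methionine synthesis. Whether the sua7-1 strain kept all of these alleles was not checked. Cultures in rich YPD medium at 30 °C were harvested when A600 reached 0.8, and BrUTP was run into nascent RNA for 5 min in permeabilized cells (global run-on sequencing, GRO-seq). The study's methods call the libraries of each strain biological replicates, but they count fewer for WT than the labels list and do not say which. Whether all 4 WT libraries came from separate cultures is thus not stated, and part of their spread, which p-values rest on, may be technical.

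The readthrough index (RTI) divides the reads that lie 50 to 500 nt past an mRNA's annotated 3' end by those in the mirror window before it. An RTI near 0 means that few reads lay past the poly(A) site relative to those before it, and an RTI above 1 means that more reads lay after the site than before it. The deposited values are ratios, so the read numbers behind them, and with them the counting error, are unknown. An RTI was listed for 314 to 337 of the genes in the sua7-1 libraries and for 325 to 336 in WT replicates 1 to 3. WT replicate 4 had values for 38 genes, none of them a member. The median RTI of a library was 0.0414 to 0.0850 in sua7-1 and 0.00349 to 0.0150 in WT, and for 264 of the 337 genes (78.3%) every sua7-1 value lay above every WT value.

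In yeast, the RNA polymerase II transcript is cut and polyadenylated at the 3' end by the CPF and CF1 complexes, and the exonuclease Rat1 then degrades the RNA still attached to the polymerase, which helps to release it. TFIIB acts at the promoter, where it bridges the promoter-bound factors and the polymerase. The 4 genes belong to separate branches of amino acid synthesis. GDH1 encodes the main NADP-dependent glutamate dehydrogenase, which joins ammonia to 2-oxoglutarate. THR4 encodes threonine synthase, the last enzyme of threonine synthesis from aspartate. ARO2 encodes chorismate synthase, which makes the common precursor of phenylalanine, tyrosine and tryptophan, and ARO8 encodes an aromatic aminotransferase that completes phenylalanine and tyrosine. Many genes of these branches are induced by the activator Gcn4 when amino acids run short.

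In the RefSeq annotation of R64, THR4 (YCR053W) lies on chromosome III from 216697 to 218241 and GDH1 (YOR375C) on chromosome XV from 1041678 to 1043042. ARO2 (YGL148W, 226399 to 227529) and ARO8 (YGL202W, 116059 to 117561) lie on chromosome VII. GDH1 is on the reverse strand and the other members are on the forward strand. Each of the 4 is followed by a convergent gene, one that is transcribed toward it from the opposite strand. CTR86 ends 134 nt after the THR4 stop codon, and RPL9A, a ribosomal protein gene, 224 nt after that of ARO2. ALD4, a mitochondrial aldehyde dehydrogenase gene, ends 278 nt after the stop codon of GDH1, and MCM6, which encodes a subunit of the replicative helicase, 292 nt after that of ARO8. An opposite-strand gene lies within 500 nt of the stop codon for 220 of the 331 measured genes that were found in the annotation, so this setting is a common one. Between 50 and 500 nt after the stop codon, convergent genes cover 81.3% of the bases behind THR4, 61.3% behind ARO2, 49.3% behind GDH1 and 46.2% behind ARO8, against a median of 32.9% over the measured genes. On the same strand, no gene begins within 2713 nt of any of the 4 stop codons, the distance from ARO2 to TIP20. Distances are counted from the stop codon, because the mRNA 3' ends on which the RTI windows rest were not used here.

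Yeast poly(A) sites are marked by an efficiency element, of which TATATA is the strongest form in DNA letters, and by a positioning element such as AATAAA. The first 300 nt after the stop codon hold TATATA, which is its own reverse complement, in THR4, ARO2 and ARO8 and not in GDH1. The stretches are shown because they contain the nearest such word to the end of each reading frame. Capitals mark TATATA, which in ARO8 occurs at 2 overlapping positions.
THR4, chrIII:218261-218290, forward strand: tatattttatctTATATAacatatagaatt
ARO2, chrVII:227554-227583, forward strand: gttatgtatattTATATAcgcatgtatatg
ARO8, chrVII:117572-117601, forward strand: acgttggaagaaTATATATAaggtgaaaaa
The word begins 32 nt after the stop codon in THR4, 37 nt in ARO2 and 23 nt in ARO8. It was found in the same window in 214 of 331 measured genes (64.7%) and in 55.4% of all protein-coding genes. AATAAA was found on the coding strand 3 times in ARO2, first at 68 nt, and not in the others, against 46.2% of measured genes. On the opposite strand it was found in GDH1 and ARO2, against 57.4% of measured genes. Between 50 and 500 nt after the stop codon the members held 65.8% to 68.4% A and T, close to the median of 66.7% over the measured genes. A match describes the letters only, and neither word separates THR4 and GDH1 from ARO2 and ARO8.

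**Figure D1:**
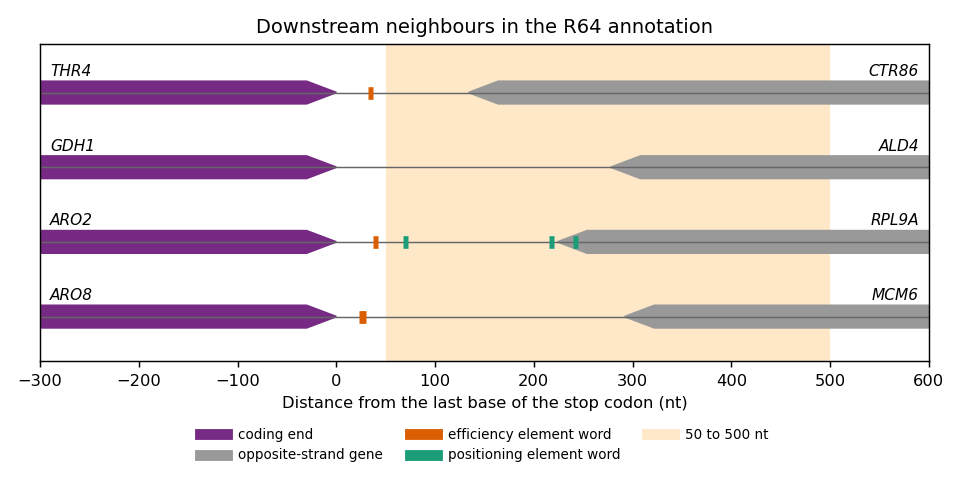
The 600 nt after the stop codon of each member, with distance in nt on the horizontal axis. Purple arrows are the ends of the coding regions, grey arrows the convergent genes, orange marks the efficiency element word, green marks the positioning element word on the coding strand, and the shaded band spans 50 to 500 nt. The convergent gene reaches to 134 nt behind THR4 and to 224 to 292 nt behind the other members.

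In sua7-1 the RTI of THR4 was 0.126, 0.311 and 0.160 (replicates 2, 3 and 4), against 0.0106, 0.00341 and 0.00452 in WT (replicates 1, 2 and 3). The strains did not overlap, and the lowest sua7-1 library was above the highest WT library. The mean was 0.199 ± 0.0982 in sua7-1 and 0.00616 ± 0.00385 in WT (SD, n = 3 each), a ratio of means of 32.3. On the log2(RTI + 0.002) scale, which understates the change of low values, sua7-1 was 4.61 above WT. The median over all 337 genes was 2.44, so THR4 stood 2.17 above the typical gene of the table. When each library was left out in turn, the difference ranged between 4.24 and 4.97.

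For GDH1 the sua7-1 values were 0.101, 0.183 and 0.148 (replicates 2, 3 and 4), against 0.00472 in WT replicate 2 and 0.00913 in WT replicate 3. WT replicates 1 and 4 gave no value, and the strains did not overlap. The mean was 0.144 ± 0.0412 (SD, n = 3) in sua7-1 and 0.00693 ± 0.00311 in WT (SD, n = 2), and the means had a ratio of 20.8. The difference was 4.04 on the log2(RTI + 0.002) scale, or 1.60 above the median of all genes. That median includes WT replicate 1, in which GDH1 has no value, and was 2.85 without it in place of 2.44. Where every library was first divided by its median RTI, the difference was 1.67 for THR4 and 0.44 for GDH1. This scaling takes out the rise of the typical gene, so these are differences relative to the library medians. Over both genes the sua7-1 values lay between 0.101 and 0.311 and the WT values between 0.00341 and 0.0106.

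GDH1 has a paralog, GDH3 (chromosome I, 31567 to 32940), which is not among the genes of the table. Their coding sequences are identical at 76.7% of aligned bases and at 73.4% over the last 450 nt. The longest run that both share is 35 nt and ends 841 nt before the end of GDH1, outside its last 450 nt. It is shown in capitals with 8 bases of GDH1 on either side, because a read inside it could come from either gene.
GDH1, chrXV:1042519-1042553 in capitals, reverse strand: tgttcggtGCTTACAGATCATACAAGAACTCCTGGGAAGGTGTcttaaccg
In the last 450 nt of GDH1 the longest shared run is 14 nt, and none of the 30-base words there occurs elsewhere in the genome. For ARO8 and its paralog ARO9 (chromosome VIII, 375709 to 377250, not in the table) the identity over the last 450 nt is 56.8% and the longest shared run there 9 nt. No 30-base word of the last 450 nt of THR4, ARO2 or ARO8 occurs elsewhere either, so the coding ends of the members are unique at this length. In 74 of 292 measured genes at least 1 such word does.

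ARO2 had an RTI far above 1 in every library with a value. It was listed at 45, 16 and 15.4 in sua7-1 replicates 2, 3 and 4, against 81 and 48.5 in WT replicates 1 and 2, and not in the other two WT libraries. Every sua7-1 value lay below both WT values, though the sua7-1 value of 45 was close to the WT value of 48.5. The mean was 25.5 ± 16.9 (SD, n = 3) in sua7-1 and 64.8 ± 23.0 in WT (SD, n = 2), and the ratio of the means was 0.393. The difference was -1.49 on the log2(RTI + 0.002) scale, or -3.93 relative to the median of all genes. That median was 2.23 without WT replicate 3, in which ARO2 has no value, in place of 2.44.

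The convergent gene of ARO2 is RPL9A, which is itself in the table and has a close copy in RPL9B. RPL9A was listed at 0.00691, 0.0146 and 0.00871 in sua7-1 (replicates 2, 3 and 4), against 0.00490, 0.00229 and 0.000695 in WT (replicates 1, 2 and 3). The gene that faces ARO2 thus had a low RTI in the same libraries in which that of ARO2 was far above 1. In the stretch 50 to 500 nt after the ARO2 stop codon, 4.99% of the 30-base words occur elsewhere in the genome. The share was 1.19% behind ARO8 and 0 behind THR4 and GDH1, and 37 of 331 measured genes had any such word. The part of these repeated words, or of reads from the convergent gene, in the RTI of ARO2 was not tested.

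ARO8 was the other member whose sua7-1 values were all below its WT values. It was listed at 0 and 0.0645 in sua7-1 replicates 2 and 4, against 0.111, 0.167 and 0.0769 in WT replicates 1, 2 and 3. It had no value in sua7-1 replicate 3 or WT replicate 4. The strains did not overlap, but 0.0645 in sua7-1 and 0.0769 in WT were close. The mean was 0.0323 ± 0.0456 (SD, n = 2) in sua7-1 and 0.118 ± 0.0453 in WT (SD, n = 3), and the ratio of the means was 0.273. The difference was -3.31 on the log2(RTI + 0.002) scale, or -5.75 relative to the median of all genes, and it rested on the library listed at 0. Without sua7-1 replicate 2 it was -0.79, and without sua7-1 replicate 4 it was -5.84. It was -4.31 with a pseudocount of 0.0005 and -2.17 with 0.01. The median of all genes was 2.15 without sua7-1 replicate 3, in which ARO8 has no value, in place of 2.44.

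**Figure D2:**
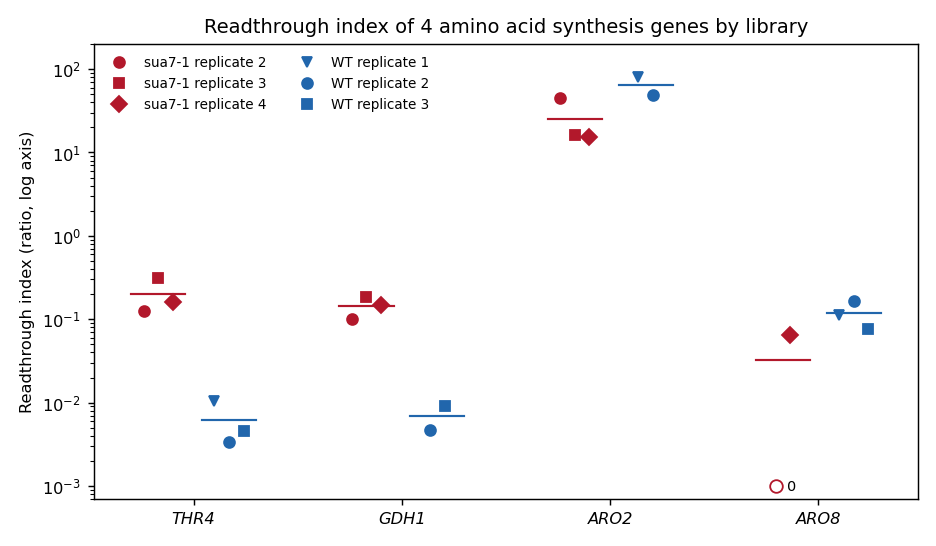
RTI of each member by library on a log axis, with sua7-1 in red to the left of WT in blue, 1 symbol per replicate and a line at each strain's mean. The open symbol marks the sua7-1 library in which ARO8 was listed at 0. THR4 and GDH1 lie higher in sua7-1 than in WT, whereas ARO2 and ARO8 lie lower.

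Thus all sua7-1 values exceeded all WT values in 2 of the 4 members, THR4 and GDH1, as in 78.3% of all genes. In the other 2, ARO2 and ARO8, all sua7-1 values were under all WT values, as in 9 of the 337 genes (2.67%). Since the members were named with this contrast in view, these counts are given only to place them in the table.

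Within a library, the place of a member among the other genes does not depend on the overall level of that library. THR4 had a higher RTI than 80.5%, 87.7% and 75.3% of the other genes in sua7-1 replicates 2, 3 and 4, against 40.7%, 49.5% and 49.6% in WT replicates 1, 2 and 3. It was thus above 75.3% or more of the genes in sua7-1 and near or below the middle in WT. GDH1 had a higher RTI than 73.2%, 71.3% and 72.9% of the other genes in the same sua7-1 libraries, against 56.5% and 66.9% in WT replicates 2 and 3. GDH1 moved less in rank than THR4, and its values were 2.15 to 2.44 times the library median in sua7-1 and 1.35 and 1.99 times in WT. ARO2 ranked first in every library in which it had a value. ARO8 was level with the lowest genes in sua7-1 replicate 2 and above 49.1% of the others in replicate 4, against 88.3%, 94.3% and 88.4% in WT replicates 1, 2 and 3.

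**Figure D3:**
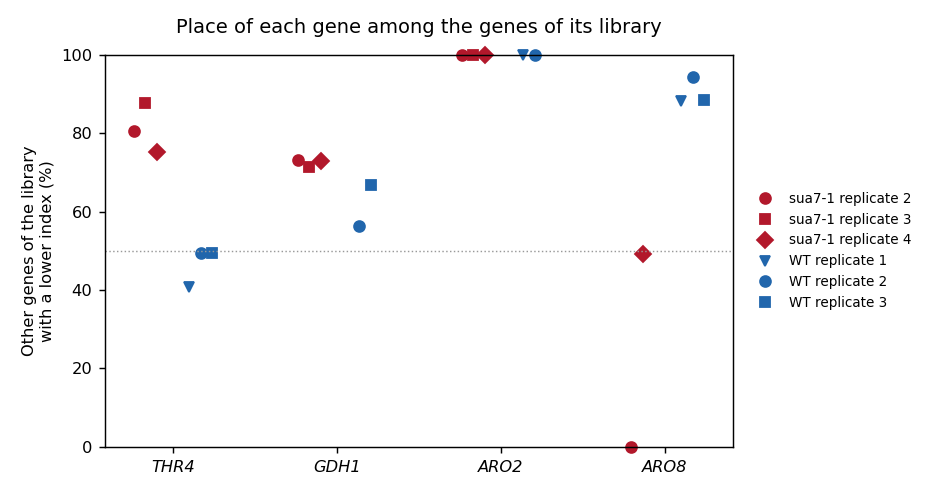
Percentage of the other genes of a library with a lower RTI than the member, with sua7-1 in red to the left of WT in blue and 1 symbol per replicate. The dotted line marks the middle of the library. ARO2 is at the top throughout, and ARO8 is above 88.3% or more of the genes in WT and at or below the middle in sua7-1.

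The order of the members differed between the strains. By mean RTI the order in sua7-1 was ARO2, THR4, GDH1 and ARO8, and in WT it was ARO2, ARO8, GDH1 and THR4. THR4 was 1.25, 1.70 and 1.08 times GDH1 in sua7-1 replicates 2, 3 and 4, against 0.722 and 0.495 times in WT replicates 2 and 3. THR4 was thus the higher of the pair in each of 3 sua7-1 libraries and the lower in both WT libraries that hold both genes. Over all libraries with a value their ranges overlapped in both strains, in WT through THR4 in replicate 1, which has no GDH1 value. ARO8 was below THR4 and GDH1 in both sua7-1 libraries with a value. In WT the order was reversed, and THR4 was 0.0950, 0.0205 and 0.0588 times ARO8 in replicates 1, 2 and 3. ARO2 was 239 times ARO8 in sua7-1 replicate 4, and 729 and 291 times ARO8 in WT replicates 1 and 2. Although ARO2 and ARO8 share a pathway and a chromosome, their levels were further apart than those of any other pair with ARO8.

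The genes with the most similar RTI values were found by the mean absolute difference of log2(RTI + 0.002) over the libraries shared with a member. The genes most like THR4 were TAL1 (transaldolase of the pentose phosphate pathway), RPP2B (a ribosomal stalk protein) and SUP35 (a translation release factor), with a mean difference of 0.24, 0.26 and 0.36 over 6 libraries, against a median of 1.58 over all genes. TAL1, for example, had 0.106, 0.286 and 0.204 in sua7-1 replicates 2, 3 and 4, against 0.0162, 0.00367 and 0.00406 in WT replicates 1, 2 and 3. The genes most like GDH1 were CPS1 (a vacuolar carboxypeptidase), IMD4 (an IMP dehydrogenase) and NCE102 (a plasma membrane protein), at 0.09, 0.16 and 0.17 over 5 libraries, against a median of 1.53. CPS1 had 0.103, 0.182 and 0.130 in sua7-1 and 0.00398 and 0.00857 in WT replicates 2 and 3. ARO2 stood far from every gene. The nearest, RPS14A (a ribosomal protein), MRP13 (a mitochondrial ribosomal protein) and PGA3 (a cytochrome b5 reductase), differed from it by 4.59, 4.74 and 5.02 over 5 libraries, against a median of 10.0, and the highest RTI among them was 2.37, for RPS14A in WT replicate 2. RPS14A has a near-identical copy with which it may share reads. The genes nearest to ARO8 were PIN4, ATP1 (a subunit of the mitochondrial ATP synthase) and SKP1 (a subunit of SCF ubiquitin ligases) at 0.73, 0.85 and 0.94 over 4 libraries, against a median of 3.39. None of the 3 has a value in sua7-1 replicate 2, the library in which ARO8 was listed at 0. These distances describe how alike the values are and are not tests.

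**Figure D4:**
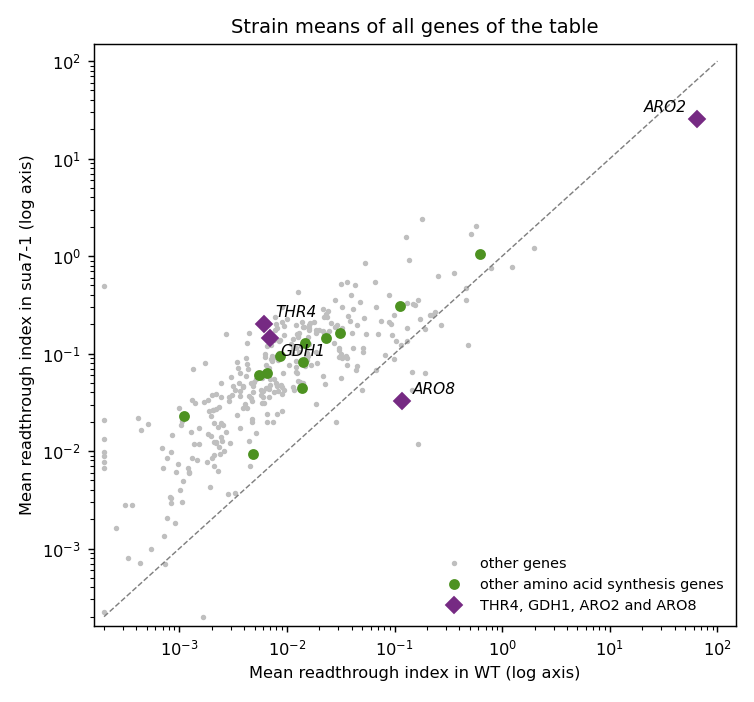
Mean RTI of each of the 337 genes in sua7-1 (vertical, log axis) against its mean in WT (horizontal, log axis), with means under 0.0002 drawn at that value and a dashed line at equal means. THR4 and GDH1 lie in the upper part of the cloud above the line, ARO8 lies below the line, and ARO2 lies apart from every other gene.

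To set the members beside the rest of amino acid synthesis, a list of 99 genes was used, of which 16 were measured, 12 beside the members. The table holds 4 of the 5 listed genes of threonine synthesis, 3 each of 12 serine, glycine and one-carbon genes and of 11 branched-chain genes, 2 of 14 aromatic genes and 2 of 19 sulfur genes. It holds none of the lysine, arginine and proline or histidine genes. ARO2 and ARO8 were thus the only listed aromatic genes in the table, so the aromatic branch cannot be described beyond them.

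Of the 12 other genes, 10 rose in sua7-1, none fell and 2, GLY1 and SAM1, did not pass the test (limma on log2(RTI + 0.002) over all genes, with a limit of 1 on the log2 fold change and of 0.05 on the p-value adjusted by Benjamini-Hochberg). Over all genes, 75.1% rose and 0.890% fell by the same test, so the share of risen genes in the list was near that of the table. The median log2 fold change was 2.70 over the 12 genes and 2.44 over all genes, and in 11 of the 12 no sua7-1 value was as low as any WT value, as in 78.3% of all genes. Among them were ASN1, an asparagine synthetase, and ILV3, an enzyme of isoleucine and valine synthesis, with log2 fold changes of 3.47 and 3.29. That of ILV3 was 2.22 without WT replicate 2, and the order of the list changed with the pseudocount. ASN1 had 0.0806, 0.114 and 0.0859 in sua7-1 replicates 2, 3 and 4, against 0.0181, 0.00209 and 0.00556 in WT replicates 1, 2 and 3 (standard error 0.61, limma adjusted p = 0.00060). Dividing each library by its median takes out the rise of the typical gene, and the median of all genes was then -0.20 in place of 2.44. Relative to the library medians none of the 12 rose and GLY1 fell, although its undivided values were all higher in sua7-1. Over all genes 22 rose and 52 fell on that scale.

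The threonine branch was the best covered. HOM3 (aspartate kinase), HOM2 (aspartate semialdehyde dehydrogenase) and HOM6 (homoserine dehydrogenase) make homoserine, which THR1, not in the table, and THR4 turn into threonine. HOM3 averaged 0.128 ± 0.0578 (SD, n = 3) in sua7-1 and 0.0147 ± 0.00612 (SD, n = 2) in WT, a log2 fold change of 2.89 (limma adjusted p = 0.0022). HOM6 averaged 0.0229 ± 0.0115 in sua7-1 and 0.00112 ± 0.00147 in WT (SD, n = 3 each), where WT replicate 2 was listed at 0, a log2 fold change of 2.98 (limma adjusted p = 0.00089). This size rests on the pseudocount, and was 4.14 with 0.0005 and 1.51 with 0.01, called with both. HOM2 had a mean of 0.306 ± 0.117 (SD, n = 3) in sua7-1 and 0.112 ± 0.0220 (SD, n = 4) in WT. The next gene on its strand, SAC3, begins 422 nt after the HOM2 stop codon, and the part of its reads in this RTI was not tested. The HOM2 log2 fold change of 1.38 (limma adjusted p = 0.015) lost its call without sua7-1 replicate 3 (0.067) and without sua7-1 replicate 4 (0.071). In all 4 measured genes of the branch every sua7-1 value lay above every WT value, as in 78.3% of all genes. Their log2 differences were 1.38 to 4.61, against a median of 2.44 over all genes. That median was 2.85 without WT replicate 1, in which HOM3 has no value. Dividing each library by its median takes out the rise of the typical gene, and relative to those medians HOM2 (-1.61) and HOM3 (-0.87) were below 0. The highest difference was that of THR4, which was named for its values.

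Among the other genes, SHM2, a serine hydroxymethyltransferase, averaged 0.0604 ± 0.0227 in sua7-1 and 0.00547 ± 0.00330 in WT (SD, n = 3 each) and rose by 3.11 on the log2 scale (limma adjusted p = 0.00056). SAH1, which breaks down S-adenosylhomocysteine, and LEU1 of leucine synthesis rose by 2.95 and 2.51. SER1, a phosphoserine aminotransferase, and LEU4, an isopropylmalate synthase, rose by 2.34 and 1.55 with 2 sua7-1 libraries each (INP52 begins on the LEU4 strand 399 nt after its stop codon), and both calls were lost without sua7-1 replicate 4 (limma adjusted p = 0.060 for SER1 and 0.21 for LEU4), where the lone sua7-1 library is assumed to vary like the other values. LEU4 was also lost without WT replicate 2 (0.062) or WT replicate 3 (0.092) and with limma's trend and robust options (0.056). GLY1, a threonine aldolase that makes glycine, had the highest RTI of the 12 in both strains, at 0.994, 1.32 and 0.826 in sua7-1 replicates 2, 3 and 4, against 0.581, 0.665 and 0.618 in WT replicates 1, 2 and 3. Its strains did not overlap, but its log2 fold change of 0.73 was under the limit of the test (limma adjusted p = 0.18). SAM1, an S-adenosylmethionine synthetase with a close paralog in SAM2, had 0.00352, 0.0159 and 0.00852 in sua7-1, against 0.0119, 0 and 0.00275 in WT, and was called without WT replicate 1 (log2 fold change 1.72, limma adjusted p = 0.0092).

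**Figure D5:**
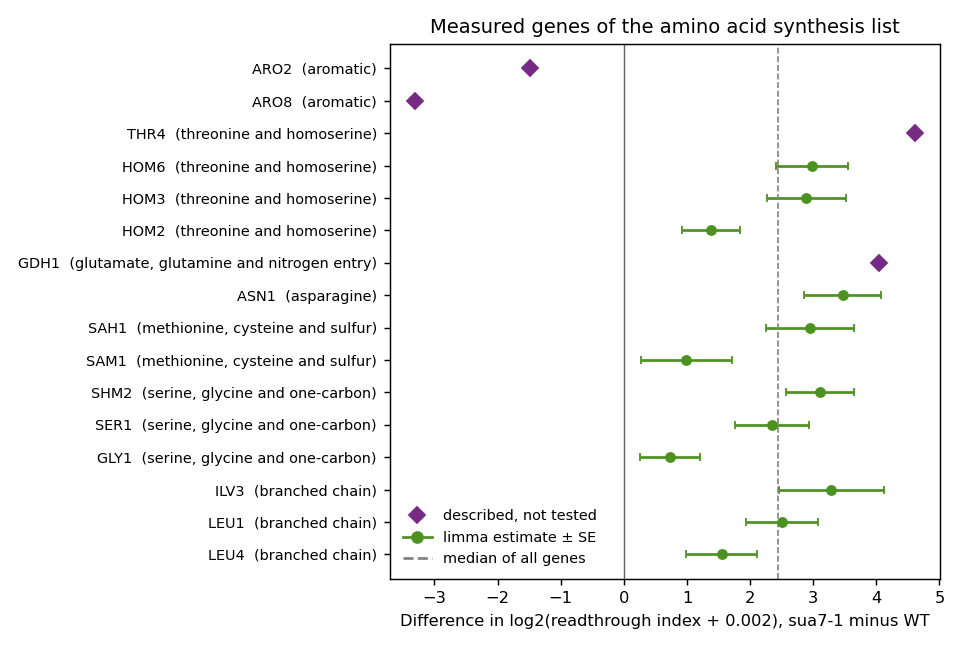
Difference in log2(RTI + 0.002), sua7-1 minus WT, for the 16 measured genes of the amino acid synthesis list, grouped by branch. Purple diamonds are the 4 members, given without a test, green circles are limma estimates with their standard error, and the dashed line is the median of all genes at 2.44. ARO2 and ARO8 are the 2 genes below 0 on the deposited scale. With libraries divided by their medians, which takes out the rise of the typical gene, 7 of the green genes are below 0. The median of all genes is then below 0 as well, at -0.20, and ARO2 and ARO8 are at -4.63 and -6.23.

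The form of the listed ratios also set ARO2 and ARO8 apart from THR4 and GDH1. Of the 5 values of ARO2, 3 are whole numbers (45, 16 and 81, with a tolerance of 1e-09). Of the 4 values of ARO8 above 0, 3 equal 1 divided by a whole number of at most 20, with a wider tolerance on the inverted value. None of the 11 values of THR4 and GDH1 has either form. Over all genes, 4 of the 1916 values above 0 are whole numbers and 22 are 1 divided by such a number, 1.36% in all, and 5 genes have 2 or more such values. The read numbers that would show what lies behind these ratios are unknown, and the part of low read numbers in the values of ARO2 and ARO8 was not tested. The rows of THR4 and ARO8 occur again in a second part of the table with the same values.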

How the data were processed

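The authors trimmed adapters with cutadapt, aligned reads to S288C (R64) and deposited the RTI, a ratio, for each gene and library. By the study's methods they kept mRNAs of at least 500 nt and 1 read per nt, with no same-strand gene within 500 nt and an RTI in at least 5 libraries, 2 or more of each strain. In the annotation used here, 28 of 331 genes depart from this, as a same-strand gene starts under 500 nt past their stop codon. They include HOM2, LEU4, MRP13, PGA3, ATP1 and SNA3, and no member. Which aligner was used is not given in these sources. Deposited columns of strain means, log2 ratios and p-values were not used. All 337 genes were fitted together by limma 3.58.1 (R 4.3.3), with log2(RTI + 0.002) as the response and no term but strain, and the script was tested on simulated data. Members and lists were chosen with earlier results of these data known. Named genes were the members, all other measured list genes, the 3 genes most like each member, downstream neighbours and paralogs. Of the 337 genes, 331 matched the RefSeq R64 annotation. Sequences came from RefSeq R64, and other values from Python 3.11.15 with pandas 2.3.3 and Biopython 1.88. The median scaling brought all libraries to one common level, the mean of their medians, before the pseudocount was added. The pseudocount thus weighed less on WT values and more on sua7-1 values than in the main fit.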

Additional observations from a re-analysis of the deposited data

How the results depend on the processing

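THR4 and GDH1 stayed higher in sua7-1, and ARO2 and ARO8 lower, under every alternative run, with log2 differences of 4.24 to 4.97, 3.67 to 4.40, -2.0 to -1.12 and -5.84 to -0.79 when single libraries were left out. Some of these runs left 1 library in a strain. They were ARO8 without sua7-1 replicate 2 or 4, ARO2 without WT replicate 1 or 2, and GDH1 without WT replicate 2 or 3. With a pseudocount of 0.01, THR4 was at 3.62, GDH1 at 3.16 and ARO8 at -2.17, and 5 genes of the table fell. With zeros taken as missing, ARO8 was at -0.79. Dividing libraries by their median RTI took out the rise of the typical gene and moved the median of all genes to -0.20. On that scale THR4, GDH1, ARO2 and ARO8 were at 1.67, 0.44, -4.63 and -6.23. Relative to the library medians, 0 of the 12 list genes rose and 1 fell, and over all genes 22 rose and 52 fell. The same scaling turned HOM2 (-1.61), HOM3 (-0.87), SAM1 (-0.81), SER1 (-0.69), GLY1 (-2.61), LEU1 (-0.60) and LEU4 (-1.37) negative. With the replicate number as a block, ARO2 was at -0.11 and ARO8 at -6.40, each from 1 pair, 9 of the 10 list genes that could be fitted (not SER1 and LEU4) and 240 of 302 genes rose, with SAM1 called (1.69). Same-numbered libraries deviated from their strain means with correlations of 0.13, -0.02 and -0.03 for numbers 2, 3 and 4, the last over 38 genes. Pairs with unlike numbers ranged from -0.20 to 0.22. A correlation over genes cannot register a shift of a whole library, so whether same-numbered libraries share a day was not tested. Leaving out single libraries gave 7 to 11 risen list genes and none that fell, and 213 to 277 risen and 2 to 4 fallen genes over the table. A one-sided unequal-variance test of each gene on the untransformed RTI was close to the study's own. With an unadjusted limit of 0.05 and a ratio of means above 2, 7 list genes and 191 genes rose by it. The study reports a larger share of risen genes at these limits, and its methods also state a stricter fold limit. TATATA was found in 3 members within 150 nt and 500 nt too, and in 46.2% and 71.0% of measured genes. Depth is unknown. With words of 50 bases, a length added after the data were seen, the repeated share behind ARO2 was 0.249%.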

Other observations

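Besides ARO2 and ARO8, the genes with 2 or more listed values that are whole numbers or 1 divided by a whole number of at most 20 were SNA3, CCW12 and PUB1, chosen after their values were seen. CCW12, a cell wall protein gene, had 0.25, 0.0714 and 0.889 in sua7-1 replicates 2, 3 and 4, against 0, 0.118 and 0 in WT replicates 1, 2 and 3, the widest spread within a strain of these 3 genes. SNA3, which encodes a vacuolar sorting protein, had 0.161, 0.0994 and 0.111 in the sua7-1 libraries, against 0.0909, 0.143 and 0.108 in the WT libraries. PUB1, which encodes a poly(A)- and U-rich RNA-binding protein, had 0.0725, 0.143 and 0.0765 in sua7-1, against 0.115, 0.0588 and 0.0714 in WT. The strains overlapped in each of these 3 genes, unlike in ARO2 and ARO8.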
